A study of Heterocephalus glaber with 215 samples.

Results

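Collagen gene expression in the naked mole-rat (Heterocephalus glaber) was described across 10 tissues and 4 social groups. Members were all rows of the count table whose gene symbol is COL, a type number, A and a chain number, which gave 43 of 16339 genes. All 43 matched a symbol in the RefSeq annotation. The symbol pattern alone decided which genes were members, although earlier results of these data were known when it was chosen. The animals were 24 naked mole-rats, 6 each of female breeders (BF), female non-breeders (NF), male breeders (BM) and male non-breeders (NM), with no genotype or drug treatment given for any group. Each breeder had left its birth colony and lived with a partner from another colony, whereas non-breeders were their litter mates, kept as workers. Breeding status can therefore not be told apart from leaving the birth colony. At sampling, mean age was 3.52 ± 0.183 years in BF, 3.4 ± 0.6 in NF, 3.52 ± 0.571 in BM and 3.42 ± 0.564 in NM (SD, n = 6 each). Breeding males were sampled within days of a birth and their partners several weeks after it, so sex among breeders cannot be told apart from time since birth.

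Collagens are secreted or membrane-bound proteins of 3 intertwined chains, each chain the product of 1 gene, and they form most of the scaffold that holds tissues together. Fibrillar collagens such as types I and III make the rope-like fibres of skin, tendon and vessel walls, whereas type IV builds the sheet-like basement membranes under epithelia and around vessels. FACIT collagens (fibril-associated collagens with interrupted triple helices) decorate the fibres, and smaller classes anchor epidermis to dermis, form beaded filaments or span the cell membrane. By these structural classes, the 43 members were 11 fibrillar, 10 FACIT, 6 basement membrane network, 5 beaded filament and related, 4 transmembrane, 3 short-chain network, 2 multiplexin and 1 anchoring fibril genes, and COL26A1 as 1 other.

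The data were 215 libraries of polyA RNA, of which 213 were used, from ovary, testis, thyroid, adrenal gland, pituitary, hypothalamus, cerebellum, skin, kidney and heart. The library totals ran from 9553515 to 20099804 counted reads with a median of 14309055. Levels are given as CPM, counts scaled to a common library total, after TMM scaling over all 213 libraries. The tissue labels were checked against 4 to 6 defining genes each, of which between 4 of 6 (hypothalamus and ovary) and 6 of 6 (kidney and pituitary) were highest in the labelled tissue. The ovary exceptions were AMH and FSHR, highest in testis, and those of hypothalamus were POMC, highest in pituitary, and SIM1, highest in kidney. KRT14, a defining keratin of basal epidermis, was listed at 0 in skin. In thyroid, the libraries labelled NF_3605 and NM_3295 went against their labelled sex: KIF4A had 19.7 CPM in the first and 0.277 in the second, where the other female libraries had 0.142 to 3.08 and the other male libraries 19 to 30. In pituitary, the libraries NF_2969 and NF_3605 stood apart from the rest of their group, though no measure of this is given here. Whether the 2 thyroid libraries were exchanged was not tested, and the main values in thyroid and pituitary are also given without these 4 libraries.

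The share of all reads that fell on the 43 collagen genes ran from 0.123% to 4.21% of a library and depended on the tissue. Skin had the highest summed level, 12900 ± 9860 CPM (SD, n = 24), with single libraries from 3200 to 44700. Ovary followed with 5530 ± 943 (n = 11), thyroid with 4300 ± 987 (n = 24), cerebellum with 3810 ± 380 (n = 22) and heart with 3230 ± 773 (n = 24). Testis had 2780 ± 496 (n = 12), hypothalamus 2520 ± 282, pituitary 2170 ± 403 and kidney 2080 ± 388 (n = 24 each). Adrenal gland had the lowest, 1620 ± 265 (n = 24), and its libraries, 1150 to 2070, lay below every skin library. Neighbours in this order overlapped in range in each case.

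**Figure D1:**
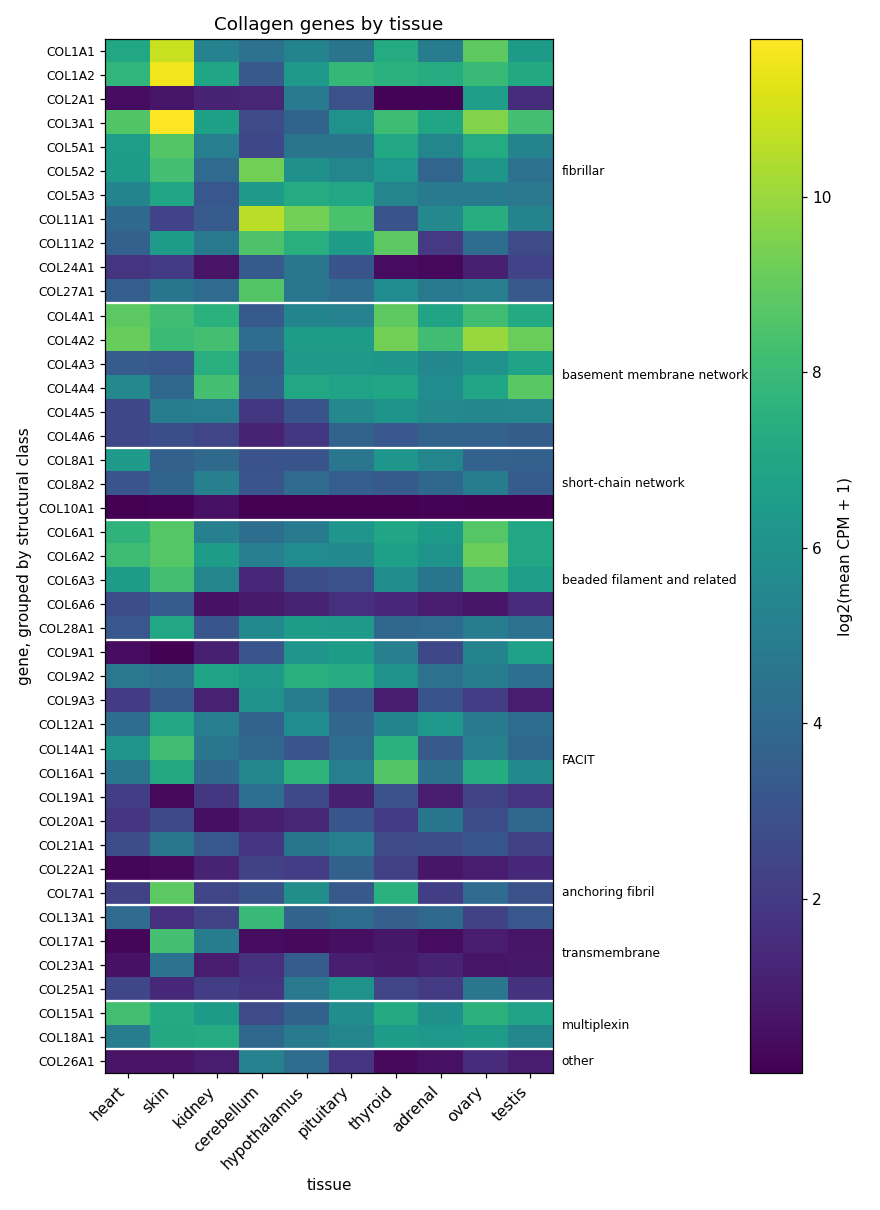
Mean level of each of the 43 collagen genes (rows, grouped by structural class) in each of the 10 tissues (columns), as colour from log2(mean CPM + 1) over 11 to 24 libraries per tissue. Type I and III genes are high in skin, COL11A1, COL13A1 and COL27A1 in cerebellum, and COL10A1 is near 0 throughout.

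Which class supplied the collagen reads differed between tissues. In cerebellum, fibrillar genes made up 80.5% ± 2.65 of collagen reads (SD, n = 22) and the basement membrane genes 1.36%. In skin the fibrillar share was 63% ± 16.2 (n = 24) and varied widely, from 29.9% to 88.9%. The basement membrane genes had their largest shares in kidney, 48.1% ± 3.51, and testis, 46.7% ± 4.16, followed by adrenal gland (35.2%), heart (33.1%) and thyroid (32%). Hypothalamus had the largest FACIT share, 22.4% ± 1.6, beside a fibrillar share of 49.3%, and ovary the largest beaded filament share, 22.8%. The anchoring fibril gene COL7A1 alone gave 5.69% ± 5.64 of collagen reads in skin and 4.28% in thyroid. These are shares of reads and were not adjusted for transcript length, which was not used here.

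The members that took the most reads in a tissue, without regard to length, were mostly type IV, I, III or XI genes. In heart they were COL4A2 (538 CPM), COL4A1 (450) and COL3A1 (391), and in kidney COL4A4 (306), COL4A2 (305) and COL4A1 (183). In thyroid they were COL4A2 (617), COL4A1 (463) and COL11A2 (458), and in ovary COL4A2 (1020), COL3A1 (759) and COL6A2 (555). A basement membrane gene thus came first in these 4 tissues, as in testis, where COL4A2 (548) and COL4A4 (435) came before COL3A1 (308). By class, ovary had a larger fibrillar share (36.5%) than basement membrane share (27.8%). In adrenal gland COL4A2 (292) was followed by COL1A2 (158) and COL3A1 (127). The brain-related tissues were led by COL11A1, with 631 CPM in hypothalamus before COL16A1 (197) and COL9A2 (168), and 340 in pituitary before COL1A2 (234) and COL9A2 (157). In cerebellum COL11A1 (1550) was followed by COL5A2 (628) and COL27A1 (396), and in skin COL3A1 (3560) by COL1A2 (2960) and COL1A1 (1810).

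Each tissue was then compared with the mean of the other 9 in a single edgeR quasi-likelihood fit of 213 libraries, with a call at a Benjamini-Hochberg adjusted p below 0.01 and a log2 fold change (log2FC) of at least 1. The fit tested 42 of the 43 members. COL10A1, the network collagen of hypertrophic cartilage, had too few reads, with its highest mean at 0.475 CPM in kidney. The members were called higher 128 times over the 10 tissues. Skin had 22 called higher and 11 lower, where 19.3% of the 15641 tested genes were called higher in skin and 17.8% lower. Hypothalamus had 18 higher and 17 lower (20.4% and 17.4% of all genes), ovary 17 and 5 (14.5% and 12.3%), pituitary 15 and 11 (16% and 11.8%) and thyroid 15 and 7 (15.2% and 18.1%). Cerebellum had more lower than higher, 10 against 24 (19.6% and 21.6% of all genes), as did kidney with 6 against 14 (16% and 15.9%), heart with 11 against 15 (16.4% and 24.8%), testis with 9 against 12 (19.6% and 13.7%) and adrenal gland with 5 against 14 (10.7% and 19.9%). The same animals gave the tissues, and adding animal as a block left the total at 128.

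Skin was the tissue with the highest mean for 13 of the 43 members, cerebellum for 7, kidney and thyroid for 4 each, hypothalamus, pituitary and ovary for 3 each, and heart, adrenal gland and testis for 2 each. Leading tissues were not counted over all genes, so these numbers cannot be set against a share of them. COL17A1, the transmembrane collagen of the hemidesmosomes that fix basal keratinocytes, had 305 ± 90.5 CPM in skin, and its lowest skin library (172) lay above the highest kidney library (50.6), the next tissue. Its log2FC in skin was 8.86 ± 0.12 (SE). COL7A1, the gene of the anchoring fibrils beneath the epidermis, had 454 ± 292 CPM in skin and 187 ± 108 in thyroid, and these ranges overlapped (log2FC 5.24 ± 0.10 in skin and 3.82 ± 0.10 in thyroid). The main fibre-forming genes were highest in skin with SDs as large as their means. COL3A1, the type III chain of extensible tissues, had 3560 ± 3660 CPM there, with libraries from 277 to 16100, against 759 in ovary and 5.71 in cerebellum. The type I genes COL1A1 and COL1A2 had 1810 ± 1900 and 2960 ± 3070 CPM in skin against 465 and 248 in ovary. COL23A1, a transmembrane collagen, was also called higher in skin (log2FC 4.18 ± 0.09). COL9A1, a FACIT chain of cartilage, was lower there, with 0.0692 CPM and a log2FC of −7.43.

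Cerebellum and hypothalamus carried another set. In cerebellum, COL11A1, a fibrillar chain of fine cartilage fibrils, had 1550 ± 257 CPM against 631 in hypothalamus (log2FC 5.28 ± 0.11 and 3.84). COL13A1, a transmembrane collagen known in mouse from the neuromuscular junction, had 255 ± 57.1 CPM in cerebellum, where the lowest library (150) was above the highest pituitary library (31.4), the next tissue. COL27A1, a minor fibrillar collagen, had 396 ± 108 CPM in cerebellum, its lowest library (232) again above the highest of the next tissue (135, thyroid). COL26A1 had 36.5 ± 6.15 CPM in cerebellum and 17.2 in hypothalamus, with no overlap (27.6 against 22.8). These 4 genes were thus high in cerebellum relative to other tissues, whereas COL3A1 and the beaded filament gene COL6A3 were called lower there, with log2FC of −5.24 and −5.01. COL5A2, which joins type I fibrils and limits their width, had 628 ± 82 CPM in cerebellum and 310 in skin. In hypothalamus, COL24A1, a minor fibrillar collagen, had 24.3 ± 5.71 CPM with its lowest library (14.9) above every cerebellum library (at most 12.7). COL9A2, another FACIT chain of cartilage, had 168 ± 13.3 CPM in hypothalamus and 157 in pituitary, which did not differ beyond their spread.

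In ovary, COL2A1, the main fibrillar collagen of cartilage, had 97.8 ± 40.1 CPM, and its lowest library (62.2) was above the highest hypothalamus library (40.4), the next tissue. Its log2FC in ovary was 6.59 ± 0.11. With COL17A1, COL13A1, COL27A1, COL26A1 and COL24A1, it was 1 of 6 members whose leading tissue did not overlap with the next. Such genes were not counted over the whole table, so these 6 cannot be set against a share of all genes. COL4A2, a chain present in all basement membranes, had 1020 ± 365 CPM in ovary and 617 in thyroid, and its partner COL4A1 had 463 in thyroid and 450 in heart. Of the chains of the specialised basement membrane of the kidney filter, COL4A3 and COL4A4 were highest in kidney and testis. COL4A5 was highest in thyroid with 67.1 CPM, before adrenal gland with 46.9. COL4A3 had 166 ± 80.2 CPM in kidney and 113 in testis, and COL4A4 had 435 ± 179 in testis and 306 in kidney. COL4A3 and COL4A4 overlap in the RefSeq annotation and the kit did not mark strand, so reads from the shared stretch cannot be told apart.

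Other members were highest in the remaining tissues. In heart, COL15A1, a multiplexin of muscle and vessel basement membranes, had 298 ± 74.2 CPM (log2FC 2.34 ± 0.09), and COL8A1, a network collagen of vessel walls, had 82.6 (log2FC 2.31). In thyroid, COL11A2 had 458 ± 161 CPM and the FACIT gene COL16A1 398 ± 118, against 365 in cerebellum and 197 in hypothalamus. Both thyroid genes overlapped in range with the next tissue. In pituitary, COL25A1, a transmembrane collagen of neurons, had 64.6 CPM (log2FC 3.76) and the FACIT gene COL22A1 11.8 (log2FC 3.46). Kidney led for COL18A1, the precursor of endostatin, with 153 CPM (log2FC 1.63), and adrenal gland for the FACIT gene COL20A1 with 23.2 CPM (log2FC 2.97 ± 0.08). COL9A1 was highest in testis with 108 ± 76.6 CPM, close to pituitary with 87.1. That order rests on NM_0713 with 345 CPM, since the other 11 testis libraries ran from 65.9 to 126 with a mean of 86.1 ± 18.

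**Figure D2:**
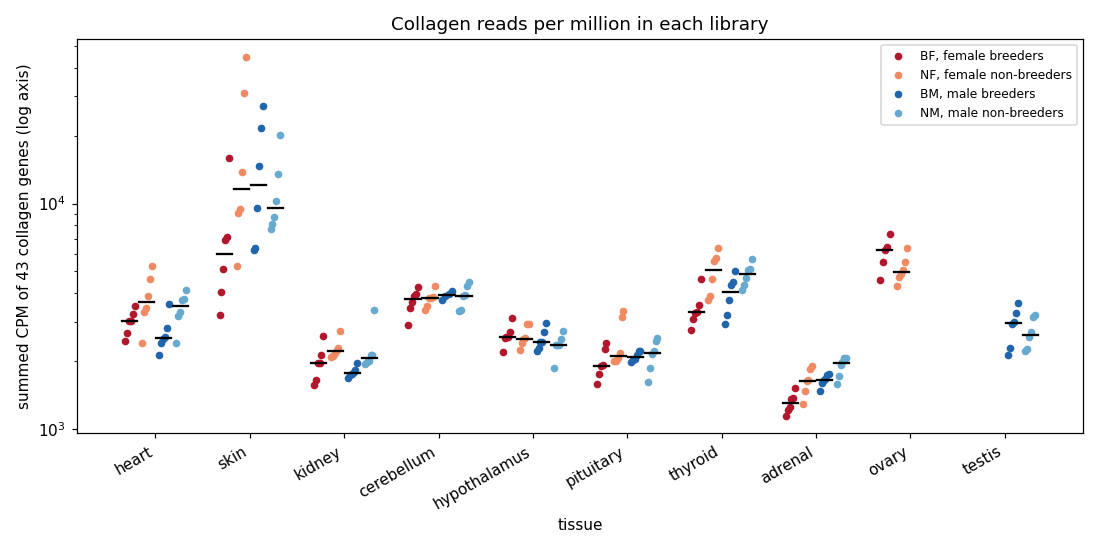
Summed CPM of the 43 collagen genes (y axis, log scale) in each library (points) by tissue and group (BF, NF, BM, NM), with bars at the group medians. Skin has the widest spread, from 3200 to 44700, and thyroid libraries run from 2740 to 4630 in BF and from 3720 to 6380 in NF.

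Breeders and non-breeders were compared within each sex and tissue, which asks what differs in the body between reproducing animals and suppressed workers. Calls used edgeR with only the 2 groups compared and an adjusted p below 0.01. In females, 3 calls were made over 9 tissues and 350 gene tests, all of them lower in BF, and all in thyroid. At an unadjusted p below 0.05, 18 tests were higher and 61 lower in BF, where 4.61% of all gene tests were higher and 5.05% lower. In males, edgeR made 0 calls in 352 tests, with 15 higher and 46 lower in BM at an unadjusted p below 0.05 (5.54% and 5.25% of all gene tests). DESeq2 made 5 calls in males with 19 higher and 50 lower: COL8A1 and COL12A1 in skin, COL1A1 and COL3A1 in kidney and COL3A1 in adrenal gland. Limma-voom made 0 calls with 16 higher and 44 lower. Shares of all genes are from edgeR throughout. None is given for DESeq2 or limma-voom, so their counts cannot be set against all genes.

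Thyroid of females held the 3 calls. It tested 37 members, of which 3 were called lower, where 1.57% of the 12837 genes tested were called in either direction and 1.38% lower. At an unadjusted p below 0.05, 16 members were lower and 1 higher, against 16% and 14.1% of all genes. Of the 37, 32 lay below 0 (51.4% of all genes), and the median log2FC was −0.46 against −0.01 over all genes. Summed collagen was 3430 ± 646 CPM in BF (2740 to 4630) and 4970 ± 1070 in NF (3720 to 6380), so the groups overlapped. Without the library labelled NF_3605, 12 members were lower at that p and the median was −0.38.

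COL7A1 fell most firmly. Its lowest, median and highest levels in thyroid were 60.6, 68.2 and 105 CPM in BF and 134, 170 and 266 in NF, so every BF library lay below every NF library. The males had 135, 188 and 483 CPM in BM and 153, 235 and 429 in NM. The log2FC in females was −1.29 ± 0.18 (SE, edgeR adjusted p = 0.00397). COL7A1 kept its call without NF_3605 (−1.33, edgeR adjusted p = 0.00793), and in 8 of the 12 fits that left out 1 animal, in which the adjusted p ran from 0.00266 to 0.0156. The animals without which the call was lost were NF_0525, BF_1090, BF_4121 and BF_6841, with log2FC between −1.28 and −1.24.

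COL9A1, the FACIT chain that coats cartilage fibrils, had 10.5, 13.1 and 15.8 CPM in BF (lowest, median, highest) and 19.6, 29.8 and 59.4 in NF, again with no overlap. The log2FC was −1.45 ± 0.26 (edgeR adjusted p = 0.00698). In males, COL9A1 had 24.3, 34 and 90.5 CPM in BM and 11.9, 42.2 and 120 in NM, and these overlapped. COL4A3, a chain of specialised basement membranes, had 31.2, 44.1 and 53.7 CPM in BF and 61.1, 67.5 and 91.3 in NF, with no overlap (log2FC −0.72 ± 0.13, edgeR adjusted p = 0.00673). In BM it had 43.7, 86.8 and 236 CPM, overlapping with NM at 62.1, 75.2 and 98.7. Both calls were lost without NF_3605, with log2FC of −1.54 for COL9A1 (edgeR adjusted p = 0.0103) and −0.73 for COL4A3 (edgeR adjusted p = 0.0138). Each kept its call in 3 of the 12 fits without 1 animal (NF_2411, NF_4060 or BF_4772) and lost it in the other 9, with adjusted p up to 0.022 for both. COL9A1 was not among the calls of limma-voom, whereas COL7A1 and COL4A3 were. With all 4 groups in 1 fit, none of the 3 was called (edgeR adjusted p = 0.0291 for COL7A1, 0.0517 for COL9A1 and 0.097 for COL4A3).

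The other thyroid members moved by less or with wider error. All 9 tested fibrillar genes were lower in BF at an unadjusted p below 0.05, with a median log2FC of −0.74. COL5A2 was just outside the threshold at −0.67 ± 0.13 (edgeR adjusted p = 0.0102), with 50.1 to 75.4 CPM in BF and 72 to 122 in NF. COL11A2 had 252 to 410 CPM in BF and 427 to 528 in NF, without overlap (log2FC −0.54 ± 0.11, edgeR adjusted p = 0.0134). The abundant fibre genes had larger differences with larger errors, −1.42 ± 0.46 for COL1A1, −1.14 for COL1A2 and −1.09 for COL3A1. Without NF_3605 these were −1.05, −0.83 and −0.83, and COL5A2 and COL11A2 were at −0.58 and −0.55 (edgeR adjusted p = 0.0185 and 0.0241). COL8A1 was the 1 member higher at the unadjusted threshold, with 77.9 to 125 CPM in BF and 44.9 to 93.8 in NF (log2FC 0.63 ± 0.17, edgeR adjusted p = 0.0305), and was at 0.53 without NF_3605. The status difference of COL7A1 differed between the sexes by −1.12 and that of COL4A3 by −1.26, and neither interaction passed (edgeR adjusted p = 0.131 and 0.0954). Without NF_3605 and NM_3295 these differences were −1.34 and −1.37 (edgeR adjusted p = 0.239 for both).

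**Figure D3:**
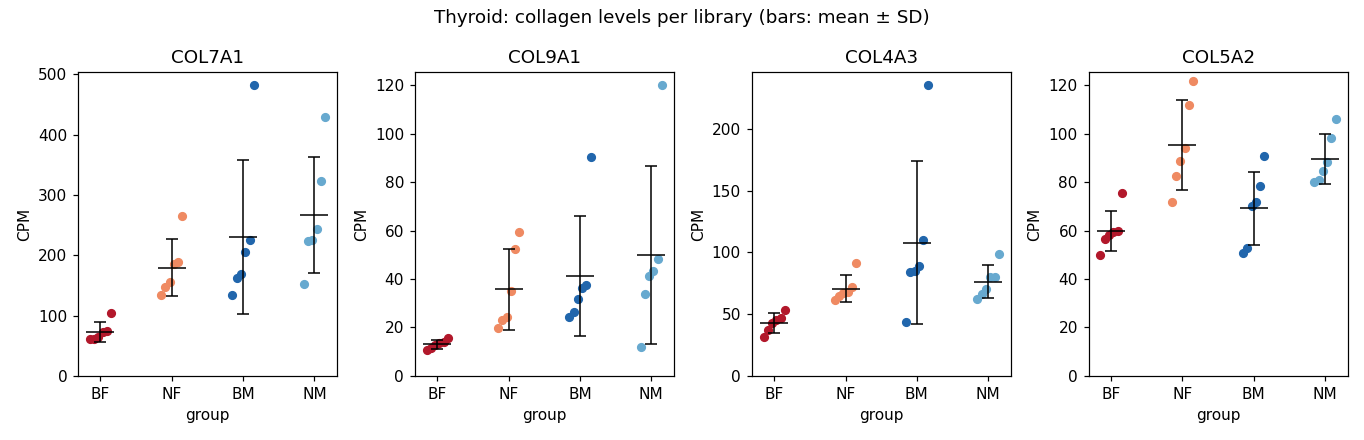
Thyroid CPM (y axes) of COL7A1, COL9A1, COL4A3 and COL5A2 in each library (points) of BF, NF, BM and NM, with bars at the mean ± SD of 6 libraries. For COL7A1, COL9A1 and COL4A3 the 6 BF libraries lie below all 6 NF libraries, COL5A2 overlaps (up to 75.4 in BF and from 72 in NF), and BM and NM overlap for all 4 genes.

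Of the genes that make, process and remove collagen, edgeR called none in female thyroid. P4HA2, a prolyl hydroxylase that stabilises the triple helix, had a log2FC of −0.42 ± 0.09 (edgeR adjusted p = 0.0168). BMP1, the protease that cuts off the C-terminal propeptide, had −0.64 ± 0.16 (edgeR adjusted p = 0.0218). KDELR3, a receptor that returns chaperones to the endoplasmic reticulum, had 0.47 ± 0.13 and ITGA10, a collagen-binding integrin, −0.79 ± 0.23. Of 13 tested genes of prolyl and lysyl modification, 3 were higher and 4 lower at an unadjusted p below 0.05 (median −0.25). Folding and export had 3 higher and 1 lower of 9 (median 0.13), cleavage and crosslinking 0 and 3 of 13 (−0.24), fibril organisers 0 and 1 of 12 (−0.20, with 11 below 0), breakdown 1 and 1 of 8 (−0.07) and receptors 0 and 1 of 7 (−0.08).

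Markers of other cells in the thyroid samples were summed in the same libraries. Thyroglobulin (TG), the storage protein of the follicle cells, ranged from 150000 to 281000 CPM in BF and from 79600 to 189000 in NF. Fibroblast markers ran from 196 to 493 CPM in BF and 181 to 602 in NF. Endothelial markers ran from 948 to 1620 and 1290 to 2250, and smooth muscle markers from 229 to 605 and 342 to 1220. Keratinocyte markers overlapped, at 237 to 387 and 206 to 325 (KRT14 at 0), as did cartilage markers at 257 to 464 and 199 to 438 and airway markers at 64.9 to 178 and 61.7 to 130. Skeletal muscle markers were at 4.05 to 11.4 in BF and 5.79 to 9850 in NF, the highest in the library labelled NF_3605. The part of any of these cells in the collagen differences was not tested, and in whole-tissue RNA fewer cells of a type and less RNA per cell cannot be told apart.

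In pituitary, COL9A2 was the member that differed most with status. It had 51.5, 53.2 and 95.7 CPM in BF (lowest, median, highest) and 180, 212 and 392 in NF. Every BF library lay below every NF library. The log2FC in females was −2.03 ± 0.23 and missed the threshold (edgeR adjusted p = 0.0146), in a comparison where 0% of all genes were called. Without the 2 NF libraries that stood apart it passed, at −1.69 (edgeR adjusted p = 0.00801), and without BF_6841, at −2.20. Those 2 NF libraries had the highest COL9A2 of their group, so fits without them are not independent of this gene's values. Over the fits without 1 animal the adjusted p ran from 0.00258 to 0.0929. DESeq2 and limma-voom called it in females with all libraries, as did edgeR with all 4 groups in 1 fit (edgeR adjusted p = 2.30e-06). In males COL9A2 had 107, 132 and 186 CPM in BM and 165, 176 and 198 in NM, with overlap (log2FC −0.33 ± 0.11, edgeR adjusted p = 0.345). The female difference exceeded the male one by −1.70 ± 0.26, which missed the threshold (edgeR adjusted p = 0.0155), and by −1.36 without the 2 libraries (edgeR adjusted p = 0.0123).

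Averaged over both sexes in a fit of the 4 groups, COL9A2 fell in pituitary of breeders with a log2FC of −1.18 ± 0.13 (edgeR adjusted p = 6.04e-05). In this comparison 0.0356% of the 14061 genes tested were called. COL9A2 was called in all 24 fits that left out 1 animal, with the adjusted p between 4.36e-06 and 0.00028, and without the 2 libraries that stood apart (−1.01, edgeR adjusted p = 1.43e-05). It was the 1 call among the members in the averaged comparison over 8 tissues. The 3 type IX chains did not move alike in females. COL9A1 had 29.4, 39.7 and 59.3 CPM in BF and 51.9, 78.7 and 299 in NF (log2FC −1.72 ± 0.46, edgeR adjusted p = 0.274), and −0.66 without the 2 libraries. COL9A3 had 5.84 to 11.2 CPM in BF and 6.99 to 14.4 in NF (log2FC −0.28 ± 0.23, and −0.06 without them). COL2A1, whose fibrils type IX coats in cartilage, had a log2FC of −0.95 ± 0.32 (edgeR adjusted p = 0.369), and −0.40 without them.

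**Figure D4:**
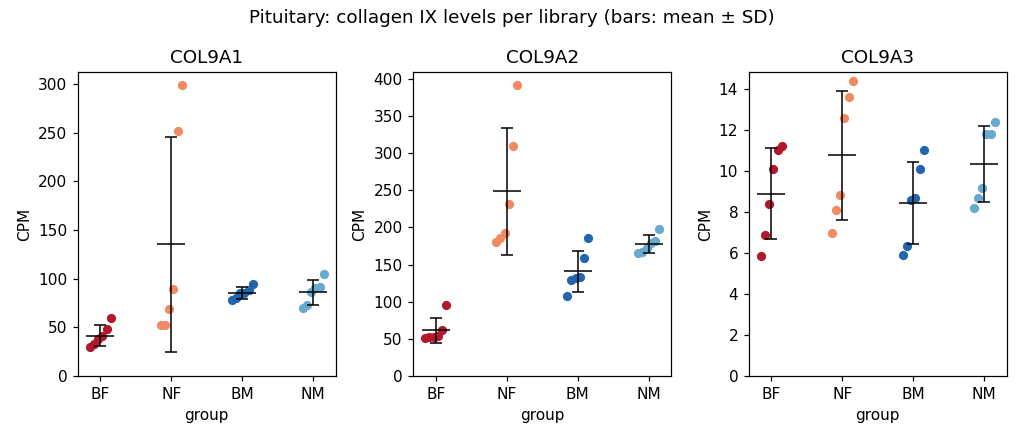
Pituitary CPM (y axes) of the type IX genes COL9A1, COL9A2 and COL9A3 in each library (points) of BF, NF, BM and NM, with bars at the mean ± SD of 6 libraries. The 2 highest NF points of COL9A1 and COL9A2 are the libraries that stood apart. The 6 BF libraries of COL9A2 (51.5 to 95.7) lie below all libraries of the other groups, the lowest of which is 107.

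Cartilage markers were summed in the same pituitary libraries. Their sum was 61.5 to 94.1 CPM in BF, 45.9 to 73.4 in NF, 40.7 to 78.8 in BM and 31.1 to 82.5 in NM, with UCMA, a marker of cartilage cells, at 0 in BF, NF and BM. Fibroblast markers were at 219 to 430 CPM in BF and 160 to 272 in NF, and endothelial markers at 261 to 528 and 363 to 513. The sum ranges of BF and NF overlapped for all 3 lists.

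Between female and male breeders, 2 of 307 gene tests were called, both of them lower in BF and in pituitary, where 0.101% of the 13804 genes tested were called. COL9A2 fell in BF against BM by 1.20 on the log2 scale (SE 0.17, edgeR adjusted p = 0.00557) and COL9A1 by 1.04 (SE 0.14, edgeR adjusted p = 0.00363). COL9A1 had 29.4 to 59.3 CPM in BF and 78 to 94.9 in BM, without overlap. These comparisons share the BF libraries with the status comparison in females. COL9A1 kept the call in the fits without BF_1816, BF_4121, BF_6382, BM_6656 or BF_6841 and lost it in the other 7 of 12 (adjusted p up to 0.0164). COL9A2 kept it without BM_6656 or BF_6841 and lost it in the other 10 of 12 (up to 0.0231). Between NF and NM, edgeR called 0 of 311 tests, with 9 higher and 23 lower in females at an unadjusted p below 0.05 (3.72% and 3.82% of all gene tests). DESeq2 called 0 with 11 and 25, and limma-voom called 0 with 7 and 18.

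In adrenal gland, the collagen genes lay lower in females than in males by median, and edgeR called none of them. By status they lay lower in female breeders than in female non-breeders, whereas the male median was close to 0 (−0.07). Summed collagen was 1320 ± 133 CPM in BF, 1630 ± 228 in NF, 1650 ± 102 in BM and 1900 ± 203 in NM (SD, n = 6 each). Between BF and BM, 20 of 37 members were lower in BF and 0 higher at an unadjusted p below 0.05, where 10.6% of all genes were lower. The median log2FC was −0.40 and 35 members lay below 0 (49.9% of all genes). COL9A1 had 0.78, 1.92 and 3.73 CPM in BF and 5.65, 7.96 and 10.3 in BM, without overlap (log2FC −1.94 ± 0.34, edgeR adjusted p = 0.011). DESeq2 called 6 members between BF and BM, all lower, and limma-voom called COL9A1 alone. COL27A1 had 10.3 to 27.5 CPM in BF and 20.1 to 53 in BM (log2FC −1.19 ± 0.25, edgeR adjusted p = 0.0221). Between NF and NM, 12 members were lower and 0 higher, against 8.31% of all genes lower, with a median of −0.27.

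By status in adrenal gland, 12 of 36 members were lower in BF and 0 higher at an unadjusted p below 0.05, where 6.28% of all genes were lower, and the median was −0.31 against 0.00. COL1A2 had 84.3, 123 and 159 CPM in BF and 135, 185 and 195 in NF (log2FC −0.54 ± 0.14, edgeR adjusted p = 0.13). In males 8 of 38 were lower and 2 higher, against 3.55% and 3.41% of all genes. The male median was −0.07, with 23 members below 0 and 15 above. COL3A1 had 66.2, 99.8 and 121 CPM in BM and 127, 199 and 256 in NM, without overlap (log2FC −1.06 ± 0.20, edgeR adjusted p = 0.314), and COL1A1 −1.33 ± 0.31. Averaged over the sexes, 13 members were lower and 0 higher against 7.93% of all genes lower, led by COL3A1 at −0.78 ± 0.15 (edgeR adjusted p = 0.0252) and the beaded filament gene COL6A6 at −1.62 ± 0.33 (edgeR adjusted p = 0.0257). All 6 tested collagen receptors were lower in BF at an unadjusted p below 0.05 (median −0.44), as were 6 of 11 fibril organisers and 5 of 9 breakdown genes. The organiser OGN, a small leucine-rich proteoglycan, had −0.57 ± 0.11 (edgeR adjusted p = 0.0494). Fibroblast markers summed to 170 to 255 CPM in BF and 260 to 304 in NF without overlap, and to 199 to 332 in BM and 271 to 327 in NM. Their part in the collagen values was not tested.

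In kidney of males, edgeR called 0 members (0% of all genes) and DESeq2 called COL1A1 and COL3A1. At an unadjusted p below 0.05, 13 of 39 members were lower in BM and 0 higher, where 3.35% of all genes were lower. COL3A1 had 59.6, 67.7 and 86 CPM in BM and 101, 133 and 186 in NM, and COL1A1 15.5, 20.7 and 23.3 in BM and 28.9, 41.6 and 79.4 in NM. Neither gene overlapped between the groups, and neither passed the threshold (log2FC −1.04 ± 0.15 and −1.23 ± 0.23, edgeR adjusted p = 0.0734 and 0.317). COL4A2 also did not overlap, with 239 to 305 CPM in BM and 311 to 350 in NM (log2FC −0.31 ± 0.07). The median over the members was −0.31 with 35 below 0 (50.3% of all genes), and without NM_0713 it was −0.02 with 22 below 0, whereas 12 members still lay lower at the unadjusted threshold. MMP2, a gelatin-cutting protease, had −0.53 ± 0.10 and SPARC, a collagen-binding chaperone, −0.39 ± 0.10. Fibroblast markers summed to 162 to 239 CPM in BM and 189 to 291 in NM, and smooth muscle markers to 434 to 611 and 470 to 877, both overlapping. In females the kidney members were 6 lower and 1 higher (2.73% and 1.96% of all genes), with COL1A1 at −0.65 ± 0.22. Smooth muscle markers were lower for 5 of 6 genes in these female libraries (median −0.62) and summed to 464 to 743 CPM in BF and 542 to 1260 in NF, and their part was not tested.

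Skin went in opposite directions in the sexes by median, with wide spread. In females 8 of 37 members were lower in BF and 2 higher at an unadjusted p below 0.05 (3.65% and 2.7% of all genes), and the median was −0.14. COL3A1 had 277, 901 and 4320 CPM in BF in skin, and NF had a median of 3900 and a highest value of 16100. The lowest NF library lay below the highest BF library (log2FC −2.11 ± 0.76, edgeR adjusted p = 0.763). Without NF_3605 only 2 members were lower. Fibroblast markers were lower for 2 of 7 genes (median −0.61) and summed to 874 to 2720 CPM in BF and 1080 to 4330 in NF, and fibril organisers were lower for 3 of 11 (median −0.61). In males 6 were higher in BM and 1 lower, against 9.42% and 9.19% of all genes, and the median was 0.34. COL8A1 had 9.87, 16.3 and 23.4 CPM in BM and 5.35, 7.5 and 9.4 in NM, and COL12A1, a FACIT of tendon and ligament, 137, 176 and 281 in BM and 68.3, 95.5 and 132 in NM. Neither overlapped, and neither passed (log2FC 1.11 ± 0.21 and 0.97 ± 0.23, edgeR adjusted p = 0.0951 for both). COL4A3 was lower in BM, with a log2FC of −2.14 (edgeR adjusted p = 0.113).

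The same male skin libraries differed in other genes and cell markers. Of 10 tested breakdown genes, 8 were higher in BM at an unadjusted p below 0.05 (median 0.78), among them the membrane protease MMP14 with a log2FC of 0.97 ± 0.25 (edgeR adjusted p = 0.0951). Fibroblast markers were higher for 6 of 7 genes (median 0.87) and summed to 1990 to 5360 CPM in BM and 1070 to 2320 in NM. Endothelial markers were higher for 7 of 7 (median 0.90), and skeletal muscle markers were lower for 6 of 8 (median −3.79), with sums of 31.7 to 3840 and 37.5 to 31400. Whether the collagen values in skin follow the mix of cells in each sample was not tested.

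In ovary, members moved both ways. EdgeR called 0 of 42, where 0.445% of the 13717 genes tested were, and 9 members were higher and 10 lower in BF at an unadjusted p below 0.05 (8.44% and 7.44% of all genes), with a median of 0.00. DESeq2 called 3 members in ovary with 10 higher and 10 lower, and limma-voom called 0 with 8 and 8. COL4A4 had 72.1, 113, 104, 87.8 and 90.2 CPM in the 5 BF libraries and 128, 150 and 180 in NF (lowest, median, highest), without overlap (log2FC −0.68 ± 0.12, edgeR adjusted p = 0.0141). COL17A1 was low in ovary but separated, with 1.08 to 2.05 CPM in BF and 0.122 to 0.952 in NF (log2FC 1.90 ± 0.44, edgeR adjusted p = 0.0455). COL28A1, known in mouse from the sheaths of peripheral nerves, had 10.6 to 25.9 CPM in BF and 26 to 54.9 in NF (log2FC −1.13 ± 0.29, edgeR adjusted p = 0.0611). The prolyl hydroxylase LEPRE1 had 0.55 ± 0.10 (edgeR adjusted p = 0.013), the crosslinking enzymes LOXL2 and LOX 0.98 ± 0.20 and 1.05 ± 0.23 (edgeR adjusted p = 0.0282 and 0.0368), and the protease inhibitor TIMP1 1.01 ± 0.21 (edgeR adjusted p = 0.0298). Of 6 smooth muscle markers, 3 were higher in BF and 0 lower at an unadjusted p below 0.05 (median 1.41), with sums of 636 to 3470 CPM in BF and 401 to 1310 in NF. ACTA2 and TAGLN had 1.71 and 1.77 (edgeR adjusted p = 0.0468 and 0.035) and SMTN −0.17 ± 0.22. Fibroblast markers had 3 of 8 lower and 0 higher (median −0.12), and cartilage markers 3 of 7 lower (median −0.96), each with sums that overlapped. The part of these cells was not tested.

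In testis, COL28A1 had 9.63, 13.9 and 21.3 CPM in BM and 20.5, 26.3 and 28 in NM, overlapping at the edge (log2FC −0.74 ± 0.20, edgeR adjusted p = 0.0681). COL8A1 had 0.55 ± 0.17 and COL25A1 −0.63 ± 0.20 (edgeR adjusted p = 0.0686 and 0.0698). In all, 3 of 42 members were higher and 6 lower in testis at an unadjusted p below 0.05, against 18.6% and 18% of all genes.

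In heart of males 2 of 36 members were higher and 7 lower at that p (2.72% and 3.02% of all genes). COL24A1 had a log2FC of −0.84 ± 0.23, COL4A2 −0.42 ± 0.13 and COL3A1 −0.97 ± 0.27, the last with 154, 222 and 391 CPM in BM and 223, 481 and 656 in NM, which overlapped. In heart of females COL4A1 had −0.50 ± 0.18. Each of these had an edgeR adjusted p of 0.854 in males or 0.991 in females.

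In hypothalamus of females 0 members were past an unadjusted p of 0.05 by edgeR, DESeq2 or limma-voom, where 2.26% of all genes were by edgeR, and the smallest p values belonged to COL1A1 (log2FC 0.36 ± 0.18), COL6A6 (−0.61 ± 0.31) and COL13A1 (0.26 ± 0.14). Single animals moved these values, to 0.22 for COL1A1 without BF_6382, −0.29 for COL6A6 without NF_3439 and 0.15 for COL13A1 without BF_4772. In males COL15A1 had 0.44 ± 0.18 (0.28 without BM_1400) and COL9A1 0.24 ± 0.10. In cerebellum of females COL9A3, the other type IX chain, had −0.68 ± 0.25 (−0.45 without NF_4060) and COL8A1 2.29 ± 0.98 (1.06 without BF_4772, and 1.10 with limma-voom).

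In cerebellum of males, with 4 BM libraries, 6 of 41 members were lower in BM and 0 higher at an unadjusted p below 0.05, where 2.85% of all genes were lower. Of the 41, 34 lay below 0 (49.1% of all genes), with a median of −0.25. These counts rest on which libraries were used. With the left-out library BM_5982 kept in, 0 members were lower at that p, 19 lay below 0 and the median was 0.11. Over the fits without 1 animal, 3 (without BM_1215, NM_4925 or NM_6074) to 8 were lower. COL5A1 had −0.91 ± 0.28, COL3A1 −0.61 and COL16A1 −0.54 ± 0.17, and with BM_5982 these were −0.24, −0.21 and 0.32.

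COL1A1 and COL3A1, which build the coarse fibres, are shown across tissues because their estimates were lower in breeders in many of them. The counts of tissues below follow in part from that choice. They were not made for the other members or over all genes. For COL3A1 the log2FC was below 0 in 6 of 9 tissues in females and 7 of 9 in males, with 5 of each at an unadjusted p below 0.05. In females 1 tissue, ovary, was higher at that p for both genes (0.83 ± 0.27 for COL3A1 and 0.52 ± 0.18 for COL1A1). For COL1A1 it was below 0 in 5 of 9 tissues in females and 6 of 9 in males, with 3 and 4 at that p. The largest values in females were in skin (−2.03 for COL1A1 and −2.11 for COL3A1) and thyroid (−1.42 and −1.09). In males they were in thyroid (−1.35 and −1.02), adrenal gland (−1.33 and −1.06) and kidney (−1.23 and −1.04). In males, the skin values were 0.34 and 0.10 and the testis values −0.05 and 0.00. These counts at the unadjusted threshold moved when 1 animal was left out. For COL3A1 they ran from 1 to 5 in females (1 without NF_3605, and 2 without NF_0525, BF_1090, NF_3439 or BF_6841) and from 4 to 6 in males. For COL1A1 they ran from 2 to 4 in females (2 without BF_1090, BF_1816, NF_2411 or BF_6841) and from 2 (without NM_1449) to 4 in males. In thyroid without NF_3605 and NM_3295, the values were −1.05 for COL1A1 and −0.83 for COL3A1 in females and −1.51 and −1.15 in males. No status comparison of either gene was called by edgeR, and the tissues of 1 animal are not independent.

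**Figure D5:**
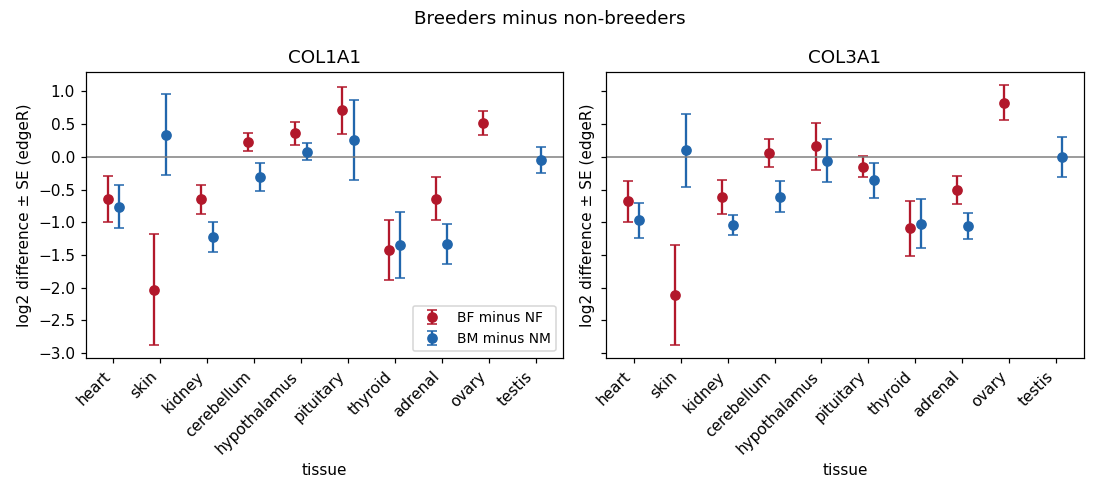
Breeder minus non-breeder log2FC (y axis, points with SE bars from edgeR) of COL1A1 and COL3A1 in each tissue (x axis), for females (BF minus NF) and males (BM minus NM). Estimates lie below 0 in thyroid, adrenal gland, kidney and heart of both sexes for both genes, and above 0 in ovary.

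Chains that assemble into the same molecule were compared across animals within each tissue, after subtracting group means from log2(CPM + 0.5). The 8 pairs in 10 tissues gave 80 correlations, each with a permutation p of 100000 resamples for Pearson's r and Spearman's rho, adjusted over the 80. COL6A1 and COL6A2, which pair in beaded filaments, had r of 0.66 to 0.98, and COL4A1 and COL4A2, which neighbour each other in the genome and pair in basement membranes, 0.49 to 0.93. Both pairs passed both tests at an adjusted p below 0.05 in 10 of 10 tissues. Without the 2 animals farthest from the median of the first gene, r ran from 0.53 to 0.97 and from 0.37 to 0.92. COL4A3 and COL4A4 had r of 0.48 to 0.96 and passed both tests in 9 tissues, but these genes overlap, so reads they share cannot be told apart. The type I pair passed in 8 tissues, and ranged from 0.99 in skin to −0.17 in hypothalamus. The pairs COL5A1 with COL5A2 and COL4A5 with COL4A6 passed in 7 tissues each. Collagen genes of different molecules were not paired, so whether partners correlate more than other collagen genes was not tested.

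The type IX and type XI pairs were the loosest. COL9A1 and COL9A2 passed both tests in 3 tissues. In pituitary r was 0.79 and rho 0.67 over 24 animals (permutation adjusted p = 3.8e-05 and 0.00112), and r was 0.67 without the 2 farthest. In adrenal gland the sign was opposite, with r of −0.53 and rho of −0.45 (permutation adjusted p = 0.0117 and 0.0418), and r was −0.29 without the 2 farthest animals, so that relation rests on them. COL11A1 and COL11A2 passed in 3 tissues, with r from −0.30 in skin to 0.62 in kidney.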

How the data were processed

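RNA of 10 tissues was sequenced as single-end reads of 51 cycles after polyA selection with an unstranded kit. The deposited count table holds read counts per gene, which the authors made with STAR 2.4.1d and HTSeq (version not given in the sources used here), with no normalization. Genes present in the table were used as named, and 61 of 16339 rows had no read. The RefSeq annotation was of a newer assembly and was used for names and neighbouring genes only. As in the study, cerebellum BM_5982 and ovary BF_1816 were left out. The members, structural classes and lists were chosen with earlier results of these data known, and 17 of 198 list genes were not in the table.

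Counts were fitted with edgeR 4.0.16 in R 4.3.3 (filterByExpr, TMM, robust quasi-likelihood F-test), each status and sex comparison with only its 2 groups, with Benjamini-Hochberg adjustment over all genes tested and a call below 0.01. The sexes were averaged, and the interaction was tested, in fits of 4 groups per tissue. SE is the absolute log2FC divided by the square root of F. No library was imputed. The precision rests on 9553515 to 20099804 reads and, in most groups, 6 animals, with 1 library per animal and tissue. Alternatives were RLE size factors, no filter, DESeq2 1.42.0, limma-voom 3.58.1, an adjusted p of 0.05, all 4 groups in 1 fit, a log2 limit of 2 between tissues, the animal as a block between tissues, other library sets and leaving out each animal. The scripts were tested on simulated data. Named with values were members called in a comparison and some, not all, of the 3 members with the smallest p in each status comparison. Also named were the 3 with the highest mean CPM per tissue and the leading member of each class. Up to 2 genes per pathway list, those with the smallest p, were named too. Other members were named after their values were seen.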

Additional observations from a re-analysis of the deposited data

Results flagged for a closer look

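Summed collagen and the called members were screened for single libraries far from the rest of their group by Dixon's rule at the 95% level. Of 56 groups of values, 10 had such a library, where chance gives about 1 in 20 for normally distributed values in independent groups. The distribution of CPM was not checked and the groups shared animals, so 10 of 56 cannot be set against that rate. All 10 were the highest library of their group.

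In kidney, NM_0713 had a summed collagen level of 3370 CPM where the next NM library had 2140, and NF_4060 had 2710 where the next NF library had 2300. In skin, BF_4772 had 15900 CPM where the next BF library had 7100. In thyroid, BM_1215 stood apart for 3 members, with 236 CPM of COL4A3 (next 110), 483 of COL7A1 (next 225) and 90.5 of COL9A1 (next 37.7). NF_2411 had 91.3 CPM of COL4A3 (next 72.4) and BF_1816 had 105 of COL7A1 (next 74.6). The library labelled NM_3295, which went against its labelled sex, had 120 CPM of COL9A1 (next 48.2). In pituitary, BF_6841 had 95.7 CPM of COL9A2 where the next BF library had 61.8.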

How the results depend on the processing

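Status in females gave 3 collagen calls. The number was 13 with DESeq2, 12 at an adjusted p below 0.05 and 1 with all 4 groups in 1 fit, and stayed between 2 and 4 with RLE size factors, no filter, limma-voom or other library sets. Leaving out 1 animal gave 0 (without NF_0525, BF_1090 or BF_4121) to 5 (without NF_2411). Status in males gave 0 calls, 5 with DESeq2, and 0 to 0 without 1 animal. Sex in breeders gave 2 calls, 15 with DESeq2 and 10 at an adjusted p below 0.05, and 0 (without BM_1147, BM_1400, BM_3274, BF_4772 or BM_5982) to 3 (without BF_6841) without 1 animal. Sex in non-breeders gave 0 under every alternative run, and 0 to 0 without 1 animal. Averaged status gave 1 call, 7 with DESeq2 and 4 at an adjusted p below 0.05, and 1 to 3 without 1 animal (3 without BF_4121). The interaction gave 0 calls by edgeR (6 higher and 26 lower at an unadjusted p below 0.05, against 3.53% and 3.89% of all gene tests) and limma-voom, 1 with DESeq2 and 1 at an adjusted p below 0.05, and 0 to 1 without 1 animal (1 without NF_3439, NF_4060 or BF_6841). Between tissues 128 members were called higher, 66 with a log2 limit of 2 and 124 to 130 otherwise. In that comparison the same animals gave the tissues, and adding animal as a replicate block also gave 128. No paired analysis was possible for status or sex because the labels tie no library to a litter or a breeding pair. The log2FC of COL16A1 in cerebellum of males, −0.54, was 0.32 when the left-out library BM_5982 was kept in. Of all other values compared, 1286 stayed the same, 66 lost a call or count and 30 gained one. For a single gene, the same means direction and side of the threshold, and for a count it means a similar size. Most single genes compared were uncalled in the main fit, so 1286 does not measure how firm the calls are. The cause of the losses and gains was not tested. Counts by DESeq2, limma-voom and the other alternatives here are given without a share of all genes. They can therefore not be set against all genes. Groups of 6 animals limit the precision, and low members such as COL10A1 had too few reads to test.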

Other observations

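The 2 libraries left out of all comparisons had other collagen levels than the rest of their tissue. Cerebellum BM_5982 had 353 CPM of COL11A1 and 12.1 CPM of COL13A1, where the lowest of the other cerebellum libraries had 922 and 150. It also had 86.5 CPM of COL5A2, 66.9 of COL27A1, 10 of COL26A1, 33.7 of COL24A1 and 65.9 of COL9A1. Ovary BF_1816 had 1180 CPM of COL3A1, 1050 of COL4A2, 474 of COL5A1, 72.1 of COL4A4 and 2.39 of COL17A1.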
